A study of Homo sapiens with 24 samples.

Results

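The 10 genes described here belong to the NF-kappaB pathway and to the tumor necrosis factor (TNF) receptor family, and they were followed in human T-cell lines exposed to DNA methyltransferase inhibitors. They are the receptors TNFRSF4 (OX40), TNFRSF8 (CD30) and TNFRSF9, the ligand CD70, the adaptors TRAF1 and BIRC3, the inhibitors NFKBIA and TNFAIP3 and the transcription factor subunits NFKB2 and RELB. They were chosen by name, as NF-kappaB targets and as TNF receptors or ligands, with earlier results of these data known. Shares of the members set beside those of all genes are therefore descriptions. All 10 are among the 25559 genes of the count tables. RNA-seq had been run on 24 libraries. The lines were HH, from a cutaneous T-cell lymphoma, TLOm1, from an adult T-cell leukemia, and PF382, from a T-cell acute lymphoblastic leukemia. Cells of each line were exposed for 96 h to azacitidine (AZA) or to decitabine, added every 24 h, or were left untreated. AZA was given at 50, 125 and 250 nM to HH and at 125, 250 and 500 nM to TLOm1 and PF382, and decitabine at 5, 12.5 and 25 nM to every line. The AZA libraries and the decitabine libraries carry different title prefixes and are treated here as 2 sets, each with its own untreated library of every line. Each condition therefore has 1 library, the doses of the drugs do not match, and the p values cover no more than the spread among the libraries at hand, since no label says that they came from separate cultures. Levels are CPM, the count of a gene scaled to the total of its library, with library totals from 13892514 to 32496676.

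NF-kappaB is a family of dimeric transcription factors that inhibitor proteins hold in the cytoplasm of resting cells. Receptors of the TNF family recruit TRAF adaptors and IAP ubiquitin ligases when their ligands bind, which leads to the loss of the inhibitor or to the processing of a precursor subunit, and the dimers then enter the nucleus. Many of the genes they switch on encode parts of the same pathway, among them the inhibitors that end the response. In mature T cells the pathway carries signals for activation and survival, and several T-cell malignancies are known for keeping it active without outside stimulus. AZA and decitabine are cytidine analogs that trap DNA methyltransferases on newly made DNA, so that methylation is lost as cells divide.

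The labelled cell types were checked first against 10 T-cell markers. All 10 had a mean of at least 1 CPM in PF382, 8 or 9 of 10 in HH and 4 or 5 of 10 in TLOm1. In TLOm1 the receptor component CD3D had a median of 0.0399 CPM and CD3G one of 0.0212 CPM, against 36.1 CPM for CD3E, and CD4, the T-helper coreceptor, had 935 CPM. LCK, the kinase of the T-cell receptor, had a median of 0.0261 CPM in HH and 0.0636 CPM in TLOm1, against 668 CPM in PF382. Untreated libraries of the 2 sets differed at 10.6% of 15501 tested genes by edgeR, and 0 of 10 members passed, the smallest adjusted p being that of CD70 (log2 difference -0.42, decitabine set over AZA set, adjusted p = 0.0577).

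Untreated HH and TLOm1 cells carried more RNA of nearly all of these genes than untreated PF382 cells. The edgeR F test over the 3 lines passed for 10 of 10 members, against 82.9% of 15501 genes tested. In the pairwise tests 9 of 10 members were higher in HH than in PF382 (background 32.0% of genes higher) and 9 of 10 were higher in TLOm1 than in PF382 (background 33.3%). The 1 gene outside the call was TNFRSF4 in both, at log2 differences of -1.57 for HH and 1.11 for TLOm1. In bulk RNA a lower share of expressing cells and less RNA per cell cannot be told apart. Single libraries or the processing decided some calls of the F test over the 3 lines, and the pairwise tests were not rerun. TNFAIP3 lost its call without a filter on low counts (adjusted p = 0.0674) and TNFRSF4 under DESeq2 (0.0716). TRAF1 lost its call without either untreated library of HH (adjusted p = 0.051 and 0.056) or of TLOm1 (0.0815 and 0.0903), BIRC3 without either of TLOm1 (0.0646 and 0.0735), TNFAIP3 without either of HH (0.0959 and 0.101) and TNFRSF4 without that of HH (0.0695) or TLOm1 (0.0979) in the decitabine set. NFKBIA, NFKB2, RELB, CD70, TNFRSF8 and TNFRSF9 passed in all 10 alternatives tried.

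**Figure D1:**
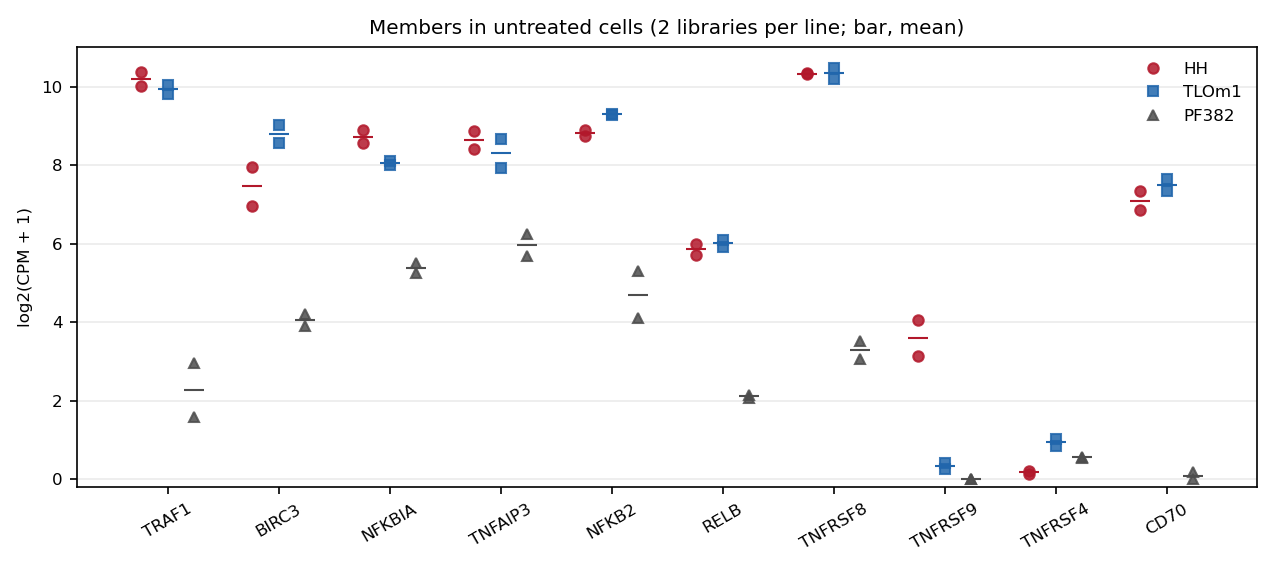
Level of each member in untreated cells, as log2(CPM + 1), by cell line; points are the 2 untreated libraries of a line and the short bar is their mean. HH and TLOm1 lie far above PF382 for 8 of the genes. TNFRSF9 is far above it in HH only, with 0.203 and 0.324 CPM in TLOm1, and the mean of TNFRSF4 is 0.132 CPM in HH, 0.915 CPM in TLOm1 and 0.468 CPM in PF382.

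TNFRSF8, the receptor known as CD30 and a diagnostic antigen of several T-cell lymphomas, averaged 1296 ± 8.04 CPM in HH, 1311 ± 186 CPM in TLOm1 and 8.94 ± 2.23 CPM in PF382 (SD, n = 2 each, as for all untreated means below). HH and TLOm1 did not differ beyond their spread (log2 difference 0.02, SE 0.13, adjusted p = 0.898), and both exceeded PF382 by over 7 log2 units, with differences of 7.37 for HH and 7.35 for TLOm1. CD70, the TNF family ligand of CD27, averaged 138 ± 32.3 CPM in HH and 181 ± 27.5 CPM in TLOm1. The PF382 libraries held 3 counts in the untreated library of the AZA set and 0 in that of the decitabine set, where 0 counts allow up to 0.195 CPM. Against the library with 3 counts, CD70 was 1230-fold higher in HH (95% counting interval 421 to 5969), and against the library with 0 counts it was at least 590-fold higher, taking the floor of 3 counts in that library. These intervals and floors cover counting error only. CD70 was lower in HH than in TLOm1 by 0.37 on the log2 scale (adjusted p = 0.0289).

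TNFRSF9, a costimulatory receptor of activated T cells also called CD137, was highest in HH. It had 7.86 and 15.6 CPM in the untreated HH libraries, 0.203 and 0.324 CPM in those of TLOm1 and 0 counts in both of PF382. HH was at least 60.0-fold higher than PF382 in the AZA set and at least 79.8-fold higher in the decitabine set, against a floor of 3 counts in the PF382 library, whereas TLOm1, with 5 and 7 counts, was at least 1.55-fold and at least 1.66-fold higher. Between HH and TLOm1 the log2 difference was 5.45 (SE 0.40, adjusted p = 1.51e-06). TNFRSF4, the costimulatory receptor OX40, stayed at or under 1.02 CPM in all 6 untreated libraries, and it was lower in HH than in TLOm1 (log2 difference -2.68, SE 0.66, adjusted p = 0.00518).

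TRAF1, a TNF receptor adaptor that is itself induced by NF-kappaB, averaged 1187 ± 200.2 CPM in HH, 984 ± 119 CPM in TLOm1 and 4.39 ± 3.35 CPM in PF382. The difference of HH from PF382 was 8.19 log2 units (SE 0.66, adjusted p = 0.00164) and that of TLOm1 7.88 (SE 0.65, adjusted p = 0.00175), while HH and TLOm1 did not separate (adjusted p = 0.628). BIRC3, the ubiquitin ligase cIAP2 that TRAF proteins bring to the receptors, followed another order. It averaged 187 ± 87.6 CPM in HH, 453 ± 104 CPM in TLOm1 and 15.8 ± 2.47 CPM in PF382, and HH was below TLOm1 by a log2 difference of -1.28 (SE 0.32, adjusted p = 0.0270).

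NFKBIA, which encodes the inhibitor IkappaB alpha, averaged 427 ± 67.5 CPM in HH, 268 ± 14.5 CPM in TLOm1 and 40.8 ± 4.92 CPM in PF382. It was the inhibitor whose level separated all 3 lines, with HH above TLOm1 by 0.69 log2 units (SE 0.12, adjusted p = 0.000692). TNFAIP3, the ubiquitin-editing enzyme that shuts NF-kappaB signaling down, averaged 405 ± 93.4 CPM in HH, 327 ± 114 CPM in TLOm1 and 63.1 ± 18.1 CPM in PF382. Its difference from PF382 was smaller than that of TNFRSF8, at 2.83 log2 units for HH and 2.48 for TLOm1, and HH and TLOm1 did not separate (adjusted p = 0.477). NFKB2, the precursor subunit of the noncanonical pathway, averaged 454 ± 35.8 CPM in HH, 631 ± 6.55 CPM in TLOm1 and 27.3 ± 15.6 CPM in PF382. RELB, the partner of processed NFKB2, averaged 57.3 ± 8.23 CPM in HH, 63.7 ± 6.06 CPM in TLOm1 and 3.32 ± 0.180 CPM in PF382. Neither subunit separated HH from TLOm1 (adjusted p = 0.294 for NFKB2 and 0.475 for RELB). In all, HH was above TLOm1 for 2 of 10 members (background 27.6%) and below it for 3 of 10 (background 28.1%).

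The stretches of genome before the start sites are shown because several members are textbook targets of NF-kappaB, whose binding sites can be read in them. RefSeq entries of the build GRCh38.p14 were found for 7 of 10 members, with more than 1 start for TRAF1 and NFKB2, and each window held 250 bases before and 50 after the start. The kappaB consensus, a motif of 10 letters, was searched on both strands with overlapping matches allowed, and 11.3% of 35114 windows in the table hold it. It was found in windows of BIRC3, NFKBIA, NFKB2, TNFAIP3 and TNFRSF9. The 250 bases upstream of the start are printed from 5′ to 3′ on the strand of the gene, with the matches in capitals.
TNFAIP3: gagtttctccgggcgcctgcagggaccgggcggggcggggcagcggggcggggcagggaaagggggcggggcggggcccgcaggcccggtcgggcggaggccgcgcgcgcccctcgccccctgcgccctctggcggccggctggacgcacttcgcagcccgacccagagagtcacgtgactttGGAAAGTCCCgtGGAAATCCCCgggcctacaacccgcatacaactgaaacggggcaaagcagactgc
NFKBIA: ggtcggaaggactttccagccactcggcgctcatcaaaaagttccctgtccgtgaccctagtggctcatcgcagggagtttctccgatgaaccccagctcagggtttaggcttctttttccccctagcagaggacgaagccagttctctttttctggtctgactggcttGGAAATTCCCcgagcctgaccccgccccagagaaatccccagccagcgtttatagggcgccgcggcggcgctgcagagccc
BIRC3: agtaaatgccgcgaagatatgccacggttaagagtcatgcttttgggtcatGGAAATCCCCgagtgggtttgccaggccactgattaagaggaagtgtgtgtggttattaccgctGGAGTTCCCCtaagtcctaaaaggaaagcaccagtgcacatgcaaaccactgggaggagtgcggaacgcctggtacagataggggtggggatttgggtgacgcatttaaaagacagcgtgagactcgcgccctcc
NFKB2: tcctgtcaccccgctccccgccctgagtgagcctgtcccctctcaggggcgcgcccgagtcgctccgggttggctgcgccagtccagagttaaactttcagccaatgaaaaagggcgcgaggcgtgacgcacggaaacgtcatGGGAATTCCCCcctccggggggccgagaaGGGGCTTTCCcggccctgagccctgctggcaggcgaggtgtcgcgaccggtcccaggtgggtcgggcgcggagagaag
TNFRSF9: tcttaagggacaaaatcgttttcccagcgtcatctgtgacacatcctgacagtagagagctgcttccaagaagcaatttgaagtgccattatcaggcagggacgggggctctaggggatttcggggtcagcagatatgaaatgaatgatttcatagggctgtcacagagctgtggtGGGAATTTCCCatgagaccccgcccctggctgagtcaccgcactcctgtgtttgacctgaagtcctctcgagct
The TNFAIP3 stretch is chr6:137867009-137867258 on the plus strand, with matches that start 67 and 55 bases before the start site. The NFKBIA stretch is chr14:35404750-35404999 on the minus strand, with 1 match that starts 81 bases before. The BIRC3 stretch is chr11:102317234-102317483 on the plus strand, with matches at 199 and 135 bases before. The NFKB2 stretch is chr10:102394328-102394577 on the plus strand and belongs to the second of 3 start sites in order of position, with overlapping matches at 107 and 106 bases and a further one at 78. The TNFRSF9 stretch is chr1:7940840-7941089 on the minus strand, with overlapping matches at 74 and 73 bases. These are matches of letters, not measured binding.

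TRAF1 and TNFRSF8 had no match of that consensus within their windows, nor had the first NFKB2 window, which says only that these letters are not there. The windows differ in CpG dinucleotides, the sites of the DNA methylation that both drugs reduce. The TNFAIP3 window holds 35 CpG in 300 bases, the 3 TRAF1 windows 32, 3 and 4, the 3 NFKB2 windows 20, 28 and 21, that of NFKBIA 22, that of BIRC3 15, that of TNFRSF8 11 and that of TNFRSF9 8, against a median of 14 over all windows. Methylation was not measured in these libraries. The TRAF1 window with 32 CpG is shown as the one with the most CpG among the member windows without a match.
TRAF1: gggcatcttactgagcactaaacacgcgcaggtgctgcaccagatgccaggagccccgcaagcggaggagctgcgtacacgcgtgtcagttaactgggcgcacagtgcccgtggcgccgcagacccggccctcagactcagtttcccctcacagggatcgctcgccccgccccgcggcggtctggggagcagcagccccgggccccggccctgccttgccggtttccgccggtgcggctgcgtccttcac
It lies at chr9:120929172-120929421 on the minus strand.

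The adaptor TRAF1, the inhibitor TNFAIP3 and the subunit NFKB2 were lower after AZA. In the edgeR test of 9 AZA libraries against 3 untreated libraries with cell line as a block, 3 of 10 members were lower, against 0.317% of 16107 genes lower, and 0 of 10 were higher, against 0.857% of genes higher. Another 4 members had an unadjusted p under 0.05, for 7 in all, against 3377 of the 16107 genes. DESeq2 called 3 members (background 6.92%) and limma voom 4 (2.76%). In every one of the 9 AZA libraries TRAF1, BIRC3, NFKB2 and TNFAIP3 lay below the untreated library of the same line and set. That pattern was seen in 5.49% of 13899 genes with a mean of at least 1 CPM.

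TRAF1 gave the largest of the 3 called changes. The HH libraries held 572, 472 and 421 CPM at 50, 125 and 250 nM AZA, against 1046 CPM untreated. The TLOm1 libraries held 622, 528 and 451 CPM at 125, 250 and 500 nM, against 900 CPM untreated. In PF382, where the gene is scarce, it had 3.17, 3.91 and 4.63 CPM, against 6.76 CPM untreated. No AZA library of any line reached the untreated library of that line in the AZA set. The untreated PF382 library of the decitabine set held 2.02 CPM, below all the AZA values of that line. In HH and TLOm1 each higher AZA dose gave a lower value. Over the lines the log2 fold change was -0.91 (SE 0.13, adjusted p = 0.0181), and an exact two-sided permutation of the untreated label within lines gave p = 0.0156, the smallest that its 64 arrangements can give. It is 1 of 20 such permutation tests over the members and drugs, whose p values are unadjusted. The call ended without the PF382 library at 250 nM (adjusted p = 0.0567) or without the TLOm1 library at 250 nM (0.0596), while the fold change stayed at -0.91 in both. It also ended without any 1 of the lines (adjusted p of 0.0725 to 0.134) and when the 3 doses were added up per line (0.128).

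TNFAIP3 moved the same way with a smaller step. HH cells had 209, 191 and 190 CPM at 50, 125 and 250 nM AZA, against 339 CPM untreated. TLOm1 cells had 194, 188 and 180 CPM at 125, 250 and 500 nM, against 246 CPM untreated. PF382 cells had 60.9, 54.1 and 50.3 CPM, against 75.9 CPM untreated. Within the AZA set the treated and untreated values did not overlap in any line. The lowest dose already held most of the change in HH and TLOm1. The untreated libraries of the decitabine set had 50.2 CPM in PF382, below every AZA value of that line, and 408 CPM in TLOm1. The log2 fold change was -0.56 (SE 0.08, adjusted p = 0.0202, exact permutation p = 0.0156). The call ended without the HH library at 125 nM (adjusted p = 0.0504), the PF382 library at 250 nM (0.0567) or the TLOm1 library at 250 nM (0.0596), without any 1 line (0.0725 to 0.134) and with doses summed (0.186).

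NFKB2 was the subunit called, near the threshold. In HH it had 400.1, 358 and 391 CPM at 50, 125 and 250 nM AZA, against 479 CPM untreated. In TLOm1 it had 591, 577 and 527 CPM at 125, 250 and 500 nM, against 636 CPM untreated. In PF382 it had 29.1, 29.3 and 30.2 CPM, against 38.4 CPM untreated. All 9 AZA libraries were lower than the untreated library of their line in the AZA set, by 7.10% to 25.3%. The untreated PF382 library of the decitabine set had 16.3 CPM, below all the AZA values of that line. The log2 fold change was -0.30 (SE 0.06, adjusted p = 0.0468, exact permutation p = 0.0156). Leaving out 1 library ended the call for 7 of the 9 treated libraries, with adjusted p values up to 0.0998, and it ended without any 1 line (0.134 to 0.192), with doses summed (0.270), without a filter on low counts (0.0566) and with the untreated libraries of both sets as controls (0.593), where the log2 fold change was -0.10.

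BIRC3 showed its change with the dose. The HH libraries held 110, 99.2 and 85.6 CPM at 50, 125 and 250 nM AZA, against 125 CPM untreated. The TLOm1 libraries held 347, 283 and 250.3 CPM at 125, 250 and 500 nM, against 379 CPM untreated. The PF382 libraries held 14.3, 13.3 and 9.09 CPM, against 17.5 CPM untreated. Each higher dose gave a lower value in every line. The test of AZA against untreated did not pass (log2 fold change -0.41, SE 0.14, adjusted p = 0.132), whereas the slope over the 9 treated libraries alone fell by 0.23 on the log2 scale for each doubling of the dose (SE 0.04, adjusted p = 0.00679). Without TLOm1 the slope was -0.21 with an adjusted p of 0.0622, and it passed in the other 15 of 16 alternatives.

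**Figure D2:**
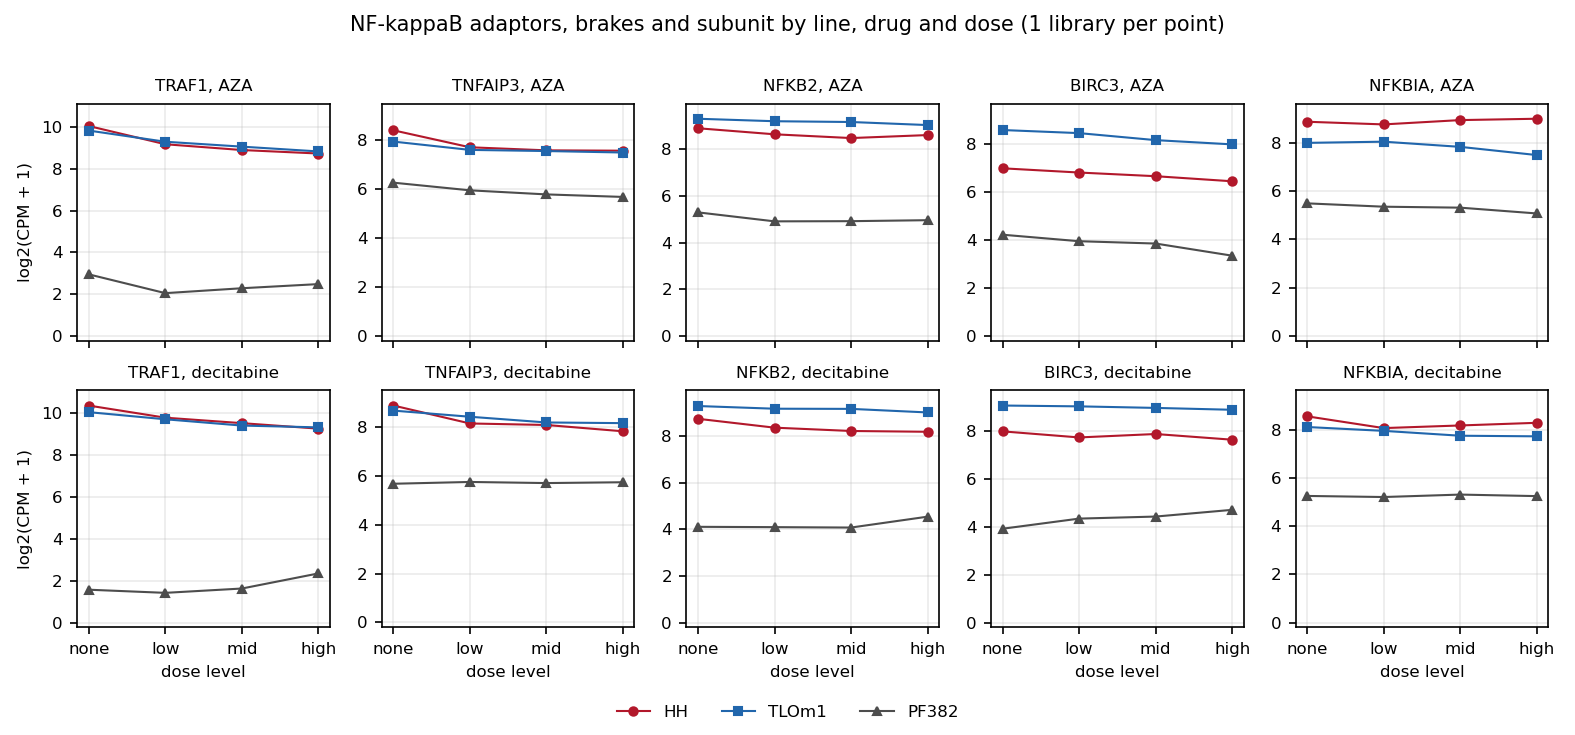
TRAF1, TNFAIP3, NFKB2, BIRC3 and NFKBIA as log2(CPM + 1) against dose level in HH, TLOm1 and PF382, with AZA above and decitabine below. Each point is 1 library; none is the untreated library of the same set, and low, mid and high are 50, 125 and 250 nM AZA in HH, 125, 250 and 500 nM AZA in TLOm1 and PF382, and 5, 12.5 and 25 nM decitabine. In the AZA panels TRAF1, TNFAIP3, NFKB2 and BIRC3 lie below their untreated point at every dose, and in the decitabine panels BIRC3 of PF382 lies above it.

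TNFRSF8 stood out from these genes by climbing with the AZA dose. HH cells had 1235, 1341 and 1664 CPM at 50, 125 and 250 nM, against 1302 CPM untreated. TLOm1 cells had 1528, 1668 and 1817 CPM at 125, 250 and 500 nM, against 1443 CPM untreated. PF382 cells had 15.4, 15.9 and 21.3 CPM, against 10.5 CPM untreated. Every dose but the lowest in HH was above untreated, and within each line the value was higher at each higher dose. The slope was 0.17 log2 units for each doubling of the dose (SE 0.03, adjusted p = 0.00925), and it passed in all 16 alternatives, with adjusted p values up to 0.0422. The comparison of all AZA libraries with untreated gave a log2 fold change of 0.31 (SE 0.13, adjusted p = 0.198). In the slope test 1 of 10 members rose, against 7.55% of 15932 genes, and 2 of 10 fell, against 6.17%. The other member that fell was TNFAIP3, by 0.09 on the log2 scale for each doubling (SE 0.03, adjusted p = 0.0452), a call that stood in 2 of 16 alternatives.

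TNFRSF9 had much lower values after AZA in HH, the line that expresses it. It had 2.66, 1.05 and 1.21 CPM at 50, 125 and 250 nM AZA, from 43, 34 and 30 counts, against 7.86 CPM and 191 counts untreated. In TLOm1 all 4 libraries of the AZA set lay between 0.164 and 0.255 CPM, and in PF382 all 4 had 0 counts. In HH every treated value lay below the untreated one, and the share of all genes with that pattern in HH was not counted. The fit over the lines gave a log2 fold change of -1.64 with an SE of 0.51 (adjusted p = 0.137), and the fit in HH one of -2.31 (SE 0.54, adjusted p = 0.138). Under limma voom the fold change over the lines was -1.90 with an adjusted p of 0.0404. Over all 16 alternatives the adjusted p ran from 0.0404 to 0.422.

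TNFRSF4 went the other way at very low counts. It had 0.371, 0.800 and 0.887 CPM in HH at 50, 125 and 250 nM AZA, from 6, 26 and 22 counts, against 0.165 CPM and 4 counts untreated. In TLOm1 it had 1.77, 1.52 and 1.53 CPM, against 0.813 CPM untreated, and in PF382 it had 1.96, 1.44 and 0.279 CPM, against 0.480 CPM untreated. Of 9 AZA libraries 8 were above untreated, the exception being PF382 at 500 nM. RELB and TNFRSF8 were also above untreated in 8 of 9, and the share of all genes with that count was not taken. The log2 fold change of 1.34 (SE 0.50) did not pass (adjusted p = 0.166).

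CD70, NFKBIA and RELB did not pass with AZA. CD70 had 163, 165 and 159 CPM in HH, against 161 CPM untreated, and 182, 177 and 165 CPM in TLOm1, against 200.1 CPM untreated (log2 fold change -0.10, SE 0.08). NFKBIA had 439, 498 and 517 CPM in HH, against 474 CPM untreated, and 267, 229.6 and 181 CPM in TLOm1, against 258 CPM untreated (log2 fold change -0.14, SE 0.11). RELB had 60.1, 66.5 and 80.7 CPM in HH, against 63.1 CPM untreated, and 72.5, 75.6 and 76.6 CPM in TLOm1, against 59.4 CPM untreated (log2 fold change 0.19, SE 0.09). The adjusted p values were 0.465 for CD70, 0.489 for NFKBIA and 0.263 for RELB. In HH and in TLOm1 the NFKBIA values lay on both sides of the untreated one, in contrast to TNFAIP3, the other inhibitor among the members. In PF382 NFKBIA had 40.1, 39.0 and 32.9 CPM at 125, 250 and 500 nM AZA, against 44.3 CPM untreated. There it lay below untreated at every dose, as TNFAIP3 did.

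**Figure D3:**
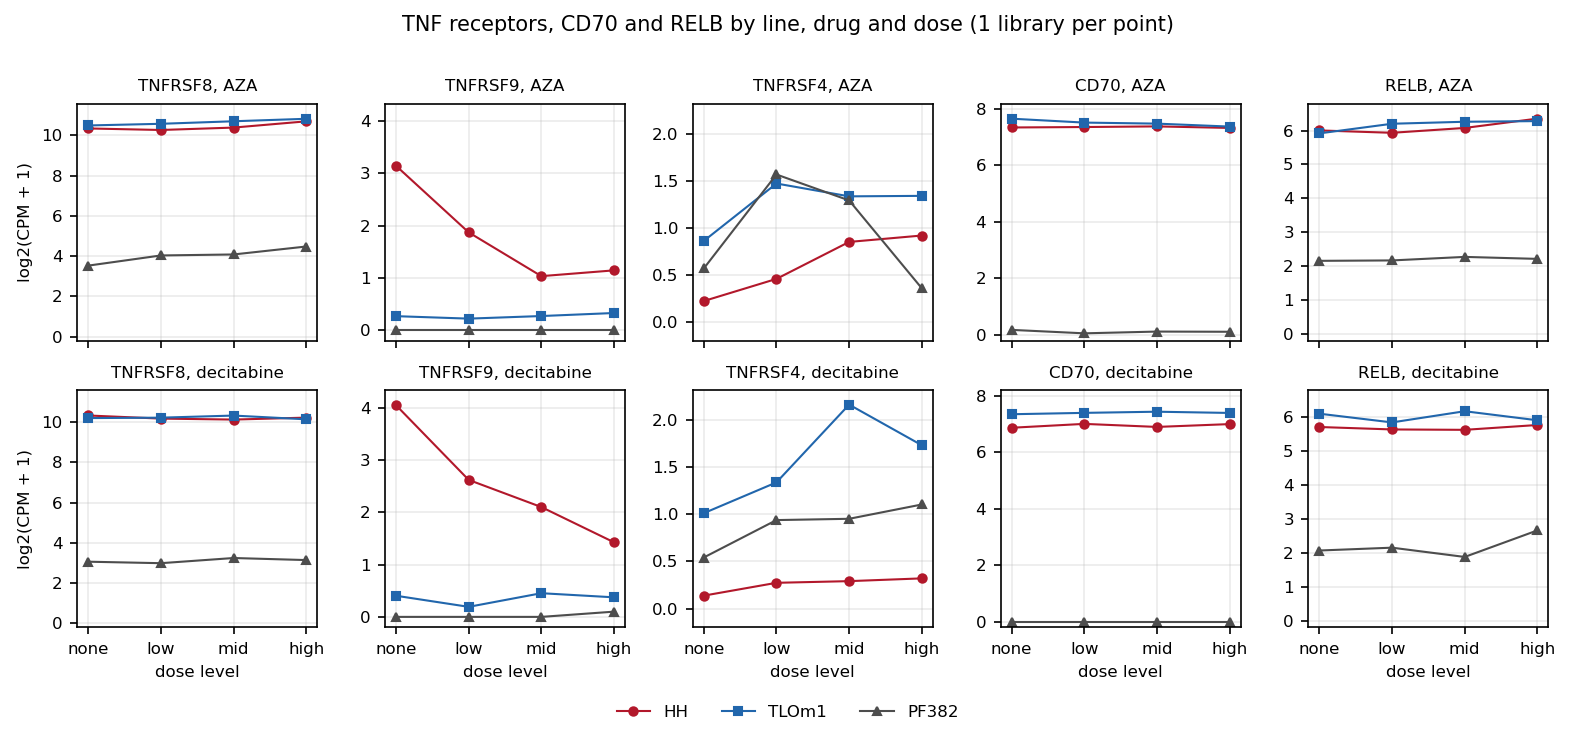
TNFRSF8, TNFRSF9, TNFRSF4, CD70 and RELB as log2(CPM + 1) against dose level, with AZA above, decitabine below and the same dose levels and lines as in the plot of the adaptors; each point is 1 library. TNFRSF9 of HH stands at 1.21 CPM at the highest AZA dose and 1.69 CPM at the highest decitabine dose, TNFRSF8 climbs with AZA in all 3 lines, and CD70 of PF382 stays at or near 0.

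When the untreated libraries of both sets served as controls for AZA, 6 of 9 tested members passed, against 20.5% of genes, with TRAF1, BIRC3 and TNFAIP3 lower and RELB, TNFRSF4 and TNFRSF8 higher. In that fit the log2 fold change of BIRC3 was -0.65 (adjusted p = 0.0149), that of TNFRSF8 0.44 (0.0271), that of TNFRSF4 1.35 (0.0222) and that of RELB 0.24 (0.0457). The set and the drug are mixed in those values. For the AZA members not yet given one, the exact permutation p was 0.03125 for BIRC3 and TNFRSF4, 0.0625 for TNFRSF8 and CD70, 0.1094 for RELB, 0.1875 for TNFRSF9 and 0.25 for NFKBIA.

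Line by line, with 1 untreated library a set assumed to vary like the others, 0 of 10 members were called for AZA in HH (background 0%), in TLOm1 (1.53%) or in PF382 (1.04%). At an unadjusted p under 0.05 there were 5 members in HH (1926 of 15532 genes), 2 in TLOm1 (3107 genes, the same share) and 5 in PF382 (2024 genes). The log2 fold changes of TRAF1 were -1.11 in HH (SE 0.25), -0.73 in TLOm1 (SE 0.25) and -0.83 in PF382 (SE 0.35). Those of TNFAIP3 were -0.79 in HH (SE 0.13, adjusted p = 0.0551), -0.37 in TLOm1 (SE 0.13) and -0.50 in PF382 (SE 0.13). All 6 of these values are below 0. Without the HH library at 50 nM, 3 members passed in HH, namely TRAF1 (-1.24, adjusted p = 0.0375), TNFAIP3 (-0.84, 0.0236) and TNFRSF9 (-2.81, 0.0323), and without the PF382 library at 125 nM TNFAIP3 passed in PF382 (-0.58, 0.0460). The test of a difference in AZA effect between the lines passed for 0 of 10 members, against 0.0708% of 15532 genes, and 0 members had an unadjusted p under 0.05, against 1862 genes. DESeq2 also called 0 members there.

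Decitabine gave values of the same sign for TRAF1, TNFAIP3 and NFKB2, with 0 calls over the 3 lines. The edgeR test of 9 decitabine libraries against 3 untreated libraries called 0 of 10 members and 0% of 15892 genes. At an unadjusted p under 0.05 there were 2492 genes, 6 members among them. DESeq2 called 469 genes (2.95%) and 2 members, NFKBIA (log2 fold change -0.27, adjusted p = 0.0353) and TNFAIP3 (-0.46, adjusted p = 0.0301), and limma voom called 12 genes (0.0755%) and 0 members. With the untreated libraries of both sets as controls 4 members passed, against 12.7% of genes, namely TRAF1 (-0.64), NFKBIA (-0.36), NFKB2 (-0.49) and TNFRSF4 (1.15). In HH and TLOm1 all 6 decitabine libraries lay below untreated for TRAF1, BIRC3, NFKBIA, NFKB2 and TNFAIP3, a pattern of 11.2% of 13135 genes, and for AZA the same held for TRAF1, BIRC3, NFKB2 and TNFAIP3, against 14.9% of 13124 genes. With PF382 added, 0 members kept it for decitabine, against 3.98% of 13928 genes.

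**Figure D4:**
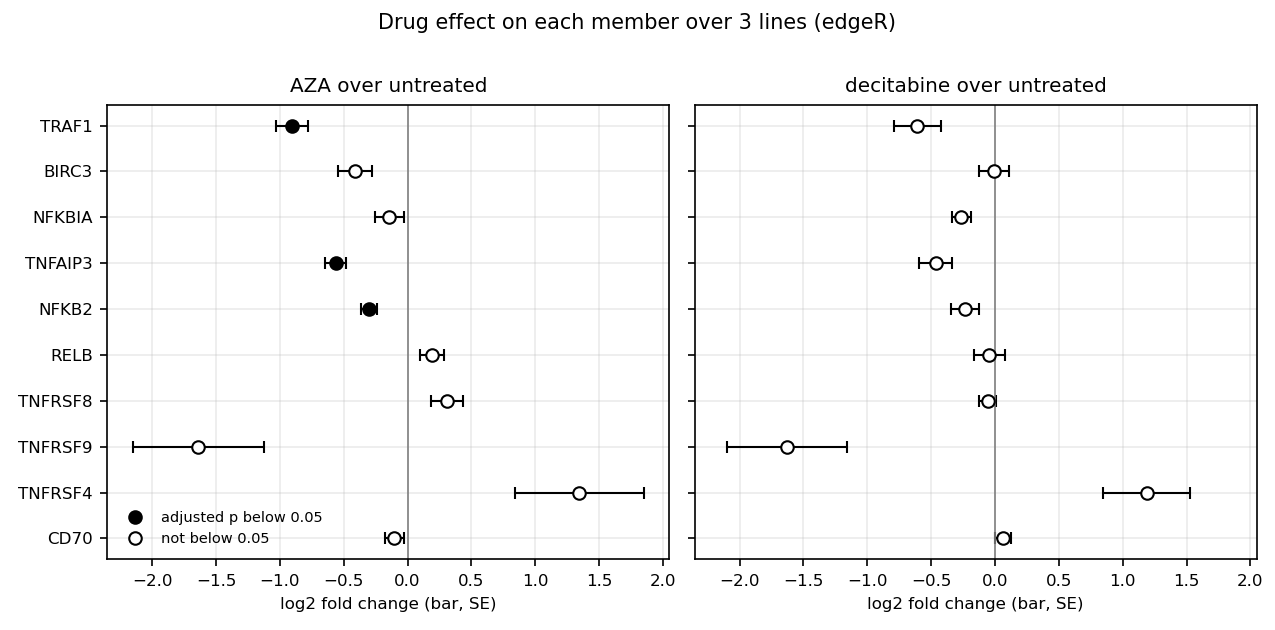
Log2 fold change of each member over the 3 lines for AZA over untreated and for decitabine over untreated, from edgeR; points are estimates, bars their SE, and filled points have an adjusted p below 0.05. TRAF1 (-0.91), TNFAIP3 (-0.56) and NFKB2 (-0.30) are filled for AZA, and no point is filled for decitabine.

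TNFAIP3 in HH was the 1 member call for decitabine. It had 283, 271 and 226 CPM at 5, 12.5 and 25 nM, against 471 CPM untreated. Its log2 fold change in HH was -0.89 (SE 0.13, adjusted p = 0.0411), and it was the single gene called among 15532 in that line (0.00644%), so that 1 of 10 members passed. The call ended without the HH library at 12.5 nM (-0.92, adjusted p = 0.111) or at 25 nM (-0.79, adjusted p = 0.126). The TLOm1 libraries held 342, 291 and 285 CPM, against 408 CPM untreated. In PF382 it had 52.9, 51.2 and 52.5 CPM, against 50.2 CPM untreated. HH and TLOm1 lay below the untreated library of the decitabine set at every dose, whereas PF382 lay above it by 2.01% to 5.34%. The slope with dose over the treated libraries was -0.10 log2 units for each doubling (SE 0.03, adjusted p = 0.0707). In that slope test 0 of 10 members passed, against 2.97% of 15677 genes, and 1 member had an unadjusted p under 0.05, against 2856 genes. TNFAIP3 passed it under DESeq2 (adjusted p = 0.0258), without a filter (0.0273), without the PF382 library at 25 nM (0.0424) and without PF382 (0.0335), where TRAF1 passed too (-0.20, 0.000621), as it did without the PF382 library at 25 nM (0.00214).

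TRAF1 lay below untreated in HH and TLOm1 at every decitabine dose and on both sides of it in PF382. In HH it had 889.95, 742 and 619 CPM at 5, 12.5 and 25 nM decitabine, against 1329 CPM untreated. TLOm1 cells had 844, 685 and 646 CPM, against 1069 CPM untreated. The PF382 libraries held 1.72, 2.14 and 4.17 CPM, against 2.02 CPM untreated. The values were lower at each higher dose in HH and TLOm1, and the PF382 library at 25 nM was the highest of its 4. Over the lines the log2 fold change was -0.61 (SE 0.18, adjusted p = 0.179), with -0.86 in HH (SE 0.25) and -0.56 in TLOm1 (SE 0.25), and the test of a difference between the lines gave an adjusted p of 0.657.

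NFKB2 and NFKBIA had lower values in HH and TLOm1 after decitabine, and neither passed over the lines. NFKB2 had 329, 298 and 291 CPM in HH, against 428 CPM untreated, and 578, 576 and 518 CPM in TLOm1, against 627 CPM untreated. NFKBIA had 270, 291 and 314 CPM in HH, against 379 CPM untreated, and 249, 216 and 213 CPM in TLOm1, against 278 CPM untreated. In HH the NFKBIA value was lowest at the lowest dose, whereas that of NFKB2 was lowest at the highest. In PF382 NFKB2 had 16.1, 15.9 and 22.4 CPM, against 16.3 CPM untreated. Over the lines the log2 fold changes were -0.23 for NFKB2 (SE 0.11, adjusted p = 0.316) and -0.26 for NFKBIA (SE 0.07, adjusted p = 0.155).

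BIRC3 lay on opposite sides of untreated in the lines under decitabine. The HH libraries held 209, 230.4 and 195 CPM at 5, 12.5 and 25 nM, against 249 CPM untreated. In TLOm1 it had 513, 491 and 465 CPM, against 526 CPM untreated. PF382 cells had 19.1, 20.3 and 24.9 CPM, against 14.01 CPM untreated. All decitabine libraries of HH and TLOm1 were below the untreated library of their set and all 3 of PF382 above it, by 36.4% to 77.8%. The log2 fold changes by line were -0.27 in HH (SE 0.20), -0.10 in TLOm1 (SE 0.20) and 0.58 in PF382 (SE 0.25), none of them called, and over the lines the value was -0.01 (SE 0.12).

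TNFRSF9 was lower in HH at every decitabine dose, a difference that did not pass. How many of all genes were lower at every dose in HH was not counted. It had 5.16, 3.30 and 1.69 CPM at 5, 12.5 and 25 nM, from 99, 59 and 34 counts, against 15.6 CPM and 314 counts untreated. The log2 fold change in HH was -2.24 (SE 0.53, adjusted p = 0.323), beside -2.31 for AZA in the same line at doses that do not match. TNFRSF4 lay above untreated in all 9 decitabine libraries, and the share of all genes with that pattern was not counted. In HH it had 0.208, 0.223 and 0.249 CPM, against 0.0994 CPM untreated, where 3 counts make 0.149 CPM. The TLOm1 libraries held 1.53, 3.49 and 2.33 CPM, against 1.02 CPM untreated, and in PF382 0.918, 0.936 and 1.15 CPM, against 0.456 CPM untreated. Its log2 fold change of 1.19 (SE 0.34) had an adjusted p of 0.161 and an exact permutation p of 0.0156, the smallest possible.

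TNFRSF8, CD70 and RELB did not pass with decitabine. TNFRSF8 had 1160, 1121 and 1199 CPM in HH, against 1290.4 CPM untreated, and 1197, 1287 and 1131 CPM in TLOm1, against 1180 CPM untreated (log2 fold change -0.06, SE 0.07). CD70 had 127, 118 and 126 CPM in HH, against 115 CPM untreated, and 167, 172 and 166 CPM in TLOm1, against 161 CPM untreated (log2 fold change 0.06, SE 0.06). RELB had 48.9, 48.5 and 53.7 CPM in HH, against 51.5 CPM untreated (log2 fold change over the lines -0.04, SE 0.12). The dose slope of TNFRSF8 that passed with AZA was -0.00225 log2 units for each doubling of the decitabine dose (SE 0.0319, adjusted p = 0.982), and the difference between the slopes was not tested. Beside that of TNFRSF4, the exact permutation p values for decitabine were 0.03125 for NFKBIA, 0.0625 for TNFAIP3 and CD70, 0.1406 for TNFRSF9, 0.1719 for TRAF1, 0.1875 for NFKB2, 0.6406 for BIRC3, 0.7656 for TNFRSF8 and 0.9688 for RELB.

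Decitabine called 0 of 10 members in TLOm1 (background 0%) and 0 of 10 in PF382 (background 0.264%), with 2 members at an unadjusted p under 0.05 in TLOm1 (1392 of 15532 genes) and 1 in PF382 (2332 genes, a larger share). The test of a difference in decitabine effect between the lines passed for 0 of 10 members, against 0.00644% of 15532 genes, with 3 members at an unadjusted p under 0.05, against 1444 genes. DESeq2 called 1 member in that test (background 0.946%), TNFAIP3, with an adjusted p of 0.00907, against 0.281 by edgeR and a range of 0.00907 to 0.491 over its 12 alternatives.

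Few other genes of the pathway passed with AZA. Lists of its parts were described by counts and medians, beside a median log2 fold change of 0.01 over all 16107 genes tested. Of 16 tested IKK kinases and upstream activators 0 passed (median -0.02), and the smallest adjusted p was that of IKBKG, the regulatory subunit of the kinase complex (0.32, adjusted p = 0.0890), followed by the adaptor TAB2 (-0.21, 0.172). Of 5 subunits 1 passed, NFKB2, with NFKB1, the precursor subunit of the canonical pathway, at -0.30 (adjusted p = 0.101). Of 6 IkappaB proteins 0 passed (median -0.06), with NFKBIE at -0.25 (adjusted p = 0.189). Of 9 TRAF and IAP proteins 1 passed, TRAF1, with the caspase inhibitor XIAP at 0.34 (adjusted p = 0.0839). Of 12 brakes of the pathway 1 passed, TNFAIP3, with its binding partner TNIP2 at 0.30 (adjusted p = 0.110). The genes that passed in these 3 lists were the members already described.

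Of 21 tested TNF receptors 0 passed with AZA (median 0.12), the smallest adjusted p values being those of TNFRSF14, the receptor HVEM (-0.44, 0.0572), and of the death receptor FAS (-0.44, 0.0646). Of 13 tested TNF ligands 0 passed (median 0.15), with TNFSF14, a ligand of that receptor, at -0.69 (adjusted p = 0.269) and CD40LG at 0.87 (0.392). Among 28 other NF-kappaB targets 2 were lower and 0 higher (median 0.08). CCL3, a chemokine for monocytes and T cells, had 4.08, 3.08 and 3.99 CPM in HH at 50, 125 and 250 nM AZA, against 10.9 CPM untreated, and 9.46, 7.59 and 8.57 CPM in TLOm1, against 28.5 CPM untreated. CXCL10, an interferon-induced chemokine, had 21.0, 23.7 and 21.0 CPM in HH, against 38.7 CPM untreated, and 2.38, 1.52 and 1.74 CPM in TLOm1, against 6.26 CPM untreated. Both had 0 counts in PF382, and their log2 fold changes were -1.64 for CCL3 (SE 0.16, adjusted p = 0.0151) and -1.25 for CXCL10 (SE 0.22, adjusted p = 0.0425). All treated values of both chemokines lay below untreated in HH and in TLOm1, a pattern of 14.9% of 13124 genes with AZA.

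With decitabine 0 genes of any of these lists passed. The smallest adjusted p values among the other targets were again those of CCL3 (log2 fold change -1.59, 0.130) and CXCL10 (-0.57, 0.133), and among the brakes that of NLRC5 (0.35, 0.130). NFKB1 stood at -0.24 (adjusted p = 0.243), NFKBIE at -0.29 (0.222), BIRC2 at -0.21 (0.255), the kinases MAP3K14 at -0.20 (0.253) and IKBKE at 0.16 (0.458), and the ligands EDA at 0.72 (0.466) and TNFSF10 at 0.50 (0.482). Along the AZA dose, the adaptor TRAF2 (0.13 log2 units for each doubling), the adaptor TRADD (0.15), the subunit RELA (0.12), the brake TNIP2 (0.11), the ligand LTB (0.43) and the decoy receptor TNFRSF10D (0.86) rose, and the ubiquitin ligase BIRC2 (-0.18), a paralog of BIRC3, and TAB2 (-0.12) fell. Among the 28 tested other targets IRF1 (0.18), STAT5A (0.26) and SQSTM1 (0.40) rose and SOD2 (-0.12) fell. TNFRSF10D was scarce in that fit, at an average log2 CPM of 0.86. Untreated LTB was lower in HH and TLOm1 than in PF382, by log2 differences of -9.24 and -9.71. In PF382 the log2 fold change of LTB for AZA against untreated was -0.01 (SE 0.28). Over all 15932 genes tested 7.55% rose along the AZA dose and 6.17% fell. Along the decitabine dose 2.97% of 15677 genes passed. TNFRSF10D, a TRAIL receptor without a complete death domain, rose along the decitabine dose as well (1.20, adjusted p = 0.00713), as did STAT5A (0.30, adjusted p = 0.00156). Their dose slopes passed with either drug, which no member's did.

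Members resembled each other to different degrees across the 24 libraries. Likeness was taken as Pearson's r of log2(CPM + 1) after subtracting the mean of each line within each set, so that the values share the untreated libraries and the drug steps, and r is a description. Among 11290 genes with a mean of at least 5 CPM, the gene most like TRAF1 was NFKB2 (r = 0.908), followed by RGS1, a regulator of G protein signaling (0.906). TRAF1 also went with TNFAIP3 (0.842) and BIRC3 (0.664) and less with NFKBIA (0.432). After TRAF1, NFKB2 was most like PPP1R3F (0.835) and TUBA1A (0.820). TNFAIP3 was most like MCU (0.871), MAPK9 (0.866) and CLCN6 (0.851), and BIRC3 most like GPR155 (0.900), CUL1 (0.856) and TAGLN2 (0.852). NFKBIA was most like ARID5A (0.816), C17orf72 (0.788) and ICAM2 (0.785).

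RELB, the subunit that pairs with NFKB2, had an r of 0.243 with it, of -0.0374 with TRAF1 and of -0.206 with TNFAIP3. The genes most like RELB were HLA-DRB1 (0.827), KIAA0125 (0.796) and ANKRD10 (0.795). TNFRSF8 had an r of -0.627 with BIRC3 and of -0.301 with TRAF1, and was most like LRPAP1 (0.884), ADRM1 (0.881) and SYNGR3 (0.873). CD70 was most like LINC00173 (0.882), GFI1 (0.853) and CCL5 (0.806). The 4 genes that lay below untreated in all AZA libraries had r values of 0.637 to 0.908 among themselves. They were grouped by a fall in libraries that also enter r, which by itself favors positive values. The r values of other genes with that pattern were not taken.

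Markers of other cell types moved with the drugs in part. Of 7 epithelial markers KRT8 was higher with AZA (log2 fold change 2.82, adjusted p = 0.0184), and the summed level of the list ran from 136 to 155 CPM in TLOm1 with AZA, against 49.2 to 83.0 CPM untreated, while EPCAM stayed at or under 0.107 CPM in every TLOm1 library and KRT14 at or under 0.101 CPM. In PF382 it ran from 22.3 to 43.0 CPM with AZA, against 3.58 to 5.06 CPM untreated, with KRT14 and KRT19 at 0. There KRT18 had 9.95 to 22.0 CPM with AZA, against 1.89 and 2.49 CPM untreated, and EPCAM reached 1.44 CPM with AZA and 5.11 CPM with decitabine, against 0 and 0.261 CPM untreated. In HH it was 0.923 to 2.66 CPM with AZA, against 0.596 to 0.864 CPM untreated, with KRT18 and KRT19 at 0. The summed list of B-cell markers in HH, 415 to 452 CPM with AZA and 350 to 406 CPM untreated, was nearly all the kinase BLK, with CD79B at 0. The list summed to 20.1 to 23.5 CPM with AZA and 18.6 to 28.0 CPM with decitabine in PF382, against 10.6 to 11.8 CPM untreated, where CD79A had 17.9 to 20.4 CPM with AZA and 17.0 to 22.5 CPM with decitabine, against 10.5 and 11.6 CPM untreated. In TLOm1 it was 3.70 to 9.29 CPM with AZA and 2.46 to 5.46 CPM with decitabine, against 1.91 to 2.82 CPM untreated. With decitabine the epithelial sum ran from 87.4 to 152 CPM in TLOm1 and from 12.2 to 46.6 CPM in PF382. The summed list of 9 myeloid markers stayed at or under 8.97 CPM in every library. With AZA it ran from 5.56 to 8.97 CPM in PF382, against 3.26 to 3.75 CPM untreated. In TLOm1 it ran from 6.28 to 7.20 CPM, against 4.26 to 5.20 CPM, and in HH from 3.69 to 4.39 CPM, against 4.97 to 5.55 CPM. With decitabine it was 3.85 to 8.49 CPM in PF382, 5.59 to 8.39 CPM in TLOm1 and 4.13 to 4.75 CPM in HH. The summed list of 8 fibroblast and endothelial markers was 85.3 to 116 CPM in TLOm1 with AZA, against 115 to 132 CPM untreated. With decitabine that list stood at 159 to 176 CPM in TLOm1 and 19.3 to 45.3 CPM in PF382, against 15.3 to 15.6 CPM in untreated PF382. Their part in the member values was not tested. Within TLOm1 the T-cell genes LCK and CD3D, which are near 0 there, were lower with AZA (adjusted p = 0.0233 and 0.0222). Those calls rest on the untreated library of the AZA set, with 1.34 CPM of LCK and 0.731 CPM of CD3D, since that of the decitabine set had 0 and 0.0463 CPM.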

How the data were processed

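Raw read counts per gene were deposited by the authors, one table for each of 24 libraries. The submitters' notes name STAR, DESeq2, limma and GRCh37.p2 without versions; the counter, the annotation and the use of strand in counting stay unstated in the sources used here. Submitters label the RNA both as poly-A RNA and as rRNA-depleted total RNA. Here, genes were kept by filterByExpr (minimum count 10, total 15) and tested by the quasi-likelihood F test of edgeR 4.0.16 (R 4.3.3; TMM, robust) on the whole table, with Benjamini-Hochberg adjustment and a threshold of 0.05. Each drug was set against the 3 untreated libraries of its set with line as a block. Slopes on log2 dose used the 9 treated libraries. Effects by line came from all 24 libraries with 6 blocks of line within set. SEs were back-calculated from the fold change and the F statistic. DESeq2 1.42.0, limma 3.58.1 voom, DESeq2 size factors, no filter, both untreated sets, summed doses and left-out libraries or lines were alternatives. Steps were tested on simulated data. Named genes were all 10 members, list genes past the threshold or else those with the smallest adjusted p, and the 3 genes most like each member with a mean of at least 5 CPM, LOC identifiers left out. Results of some genes that this rule names are not reported here. Members and lists were chosen with earlier results of these data known. The authors' paper reports other samples, so no result was taken from it.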

Additional observations from a re-analysis of the deposited data

Results flagged for a closer look

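BIRC3 after decitabine is worth a second look. Within the decitabine set every treated PF382 library lay above untreated, and every treated library of HH and of TLOm1 below. The share of all genes with that split was not counted. The untreated libraries of the AZA set held 125 CPM of BIRC3 in HH and 379 CPM in TLOm1, below every decitabine value of those lines. The log2 fold change of HH minus that of PF382 was -0.85, and that of TLOm1 minus that of PF382 was -0.68. The same split appeared for TNFAIP3, with -0.92 for HH minus PF382 and -0.44 for TLOm1 minus PF382. The PF382 values of TNFAIP3 were within 5.34% of untreated, however. The untreated PF382 library of the AZA set held 75.9 CPM of TNFAIP3, above every decitabine value of that line. The pairs of lines were not tested on their own. The test over the 3 lines gave an adjusted p of 0.535 for BIRC3 and 0.281 for TNFAIP3 by edgeR.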

How the results depend on the processing

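For AZA against untreated, against 189 genes and 3 members, DESeq2 called 1115 genes, limma voom 445, and the untreated libraries of both sets as controls 2952 genes and 6 members. Leaving out HH gave 9 genes, PF382 1 and TLOm1 0, each with 0 members, and summed doses gave 1 gene and 0 members. Leaving out 1 library gave 3 to 263 genes and 0 to 3 members. The log2 fold change of CD70 turned to 0.10 with both untreated sets.

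For decitabine against untreated, against 0 genes, DESeq2 called 469 genes and 2 members, limma voom 12 genes, both untreated sets 1796 genes and 4 members, summed doses 10 genes, and leaving out 1 library 0 to 9 genes. BIRC3 lies next to 0 there and turned to 0.0127 under DESeq2, 0.15 without HH, 0.0478 without TLOm1, 0.19 with both untreated sets, 0.0313 with summed doses and ran from -0.0483 to 0.0284 over left-out libraries. RELB turned to 0.0122 without TLOm1, CD70 to -0.17 with both untreated sets and TNFRSF8 to 0.0311 without HH.

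For the AZA dose slope, against 2186 genes and 3 members, leaving out PF382 gave 1298 genes, leaving out TLOm1 955 genes and 1 member, and leaving out 1 library 999 to 2311 genes. For the decitabine slope, against 465 genes and 0 members, no filter gave 838 genes and 1 member, DESeq2 1 member, leaving out HH 123 genes, leaving out PF382 271 genes and 2 members, and leaving out 1 library 238 to 762 genes and 0 to 2 members.

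For the AZA effect between lines, against 11 genes, DESeq2 size factors gave 23, no filter 30, DESeq2 409 and left-out libraries 5 to 53. For the decitabine effect between lines, against 1 gene, no filter gave 2, DESeq2 147 genes and 1 member, and left-out libraries 0 to 74. Leaving out 1 library gave 0 to 3 members for AZA in HH, 0 to 1 for AZA in PF382 and 0 to 1 for decitabine in HH. These alternatives by line, and those on left-out libraries between lines, were chosen after seeing the data. The cause of these moves was not tested, and the left-out fits also hold fewer samples.

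DESeq2 size factors moved the median of all genes by less than 0.1 log2 units. The drug comparisons above were all blocked by line, and no further pairing by replicate number was made, since each treated condition has 1 library and the labels give no such number. Depth limits TNFRSF4 and TNFRSF9, which have under 10 counts in several libraries, and a gene at 0 in the smallest library may still have up to 0.216 CPM.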
